A study of Mus musculus with 2 samples.

Results

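LIN28A and LIN28B, the exonuclease DIS3L2 and a set of mRNAs long known as targets of the let-7 microRNAs were followed in polyA RNA sequencing of Dicer_KO mouse embryonic stem cells (mESCs). The genes are named by a rule that lists their symbols and sets no threshold on their counts, namely Lin28a, Lin28b, Dis3l2, Hmga1, Hmga2, Igf2bp1, Igf2bp2, Igf2bp3, Trim71 and Arid3b. All 10 were present among the 43629 genes listed in the files, and all 10 averaged 10 counts or more, the minimum used for comparisons between libraries. Both libraries came from Dicer knockout mESCs of 129/Ola background, derived from blastocysts, replicate 1 at passage 7 and replicate 2 at passage 4. According to the study's methods, the cells were E14TG2a mESCs kept in serum with LIF, in which paired CRISPR/Cas9 cuts had removed part of Dicer1, and each mutant line was grown from a single sorted cell. The labels do not say which deletion belongs to which library. Line, passage and library therefore cannot be told apart, and with 1 library per passage no test between them exists. WT mESCs were not analysed here, so no value below shows what the loss of DICER changed.

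LIN28A and LIN28B are RNA-binding proteins of early embryonic and germ cells that hold back the maturation of let-7. They bind the terminal loop of the let-7 hairpin and recruit the terminal uridylyltransferases TUT4 and TUT7, whose uridine tail blocks cleavage by DICER and marks the precursor for decay by DIS3L2. Mature let-7 in turn represses Lin28a, Lin28b and a group of growth-promoting oncofetal mRNAs through sites in their 3′UTRs, and it is scarce in mESCs and abundant in differentiated cells. Hairpin cleavage by DICER precedes every step at which mature let-7 acts.

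The seed of let-7 is what joins these genes, so the microRNA and the sites are shown first. Of the 11 mature mouse sequences of the let-7 family in RefSeq (GRCm38.p6), 10 shared the seed GAGGUAG at bases 2 to 8, and let-7j differed in it. Written 5′ to 3′ with the seed in capitals, 3 members with the shared seed and the divergent one read as follows.
let-7a-5p: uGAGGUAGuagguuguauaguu
let-7g-5p: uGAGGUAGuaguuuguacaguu
miR-98-5p: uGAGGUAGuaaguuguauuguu
let-7j: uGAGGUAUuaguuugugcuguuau

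LIN28 proteins are known to recognise the letters GGAG in the loop side of the let-7 hairpin. These letters were found between the 2 mature arms in 9 of the 12 let-7 and miR-98 hairpins searched in RefSeq, on the hairpin strand only. The hairpins of let-7j and let-7k were not among the 12. Among all 644 mouse hairpins with 2 annotated arms, 58 (9.01%) held the letters. The let-7g hairpin (chr9:106178840-106178927, plus strand) shows the letters in capitals, and the let-7b hairpin (chr15:85707319-85707403, plus strand) is one of the 3 without them, the others being let-7c-2 and miR-98.
let-7g hairpin: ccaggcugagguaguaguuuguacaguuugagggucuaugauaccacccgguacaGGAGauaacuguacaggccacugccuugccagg
let-7b hairpin: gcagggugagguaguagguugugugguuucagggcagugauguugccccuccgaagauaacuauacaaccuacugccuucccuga

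Matches to the seed were searched as CTACCTC on the mRNA strand of the longest annotated 3′UTR of each gene (GENCODE M21, GRCm38). At least 1 match was found in 9 of the 10 genes and none in Dis3l2, the one gene of the list that is known as a decay enzyme of let-7 precursors rather than as a target. The 9 genes held 22 matches, of which 13 were followed by an adenine, a flanking base often seen at microRNA sites. Lin28b, Hmga2, Igf2bp1 and Trim71 had 4 matches each, Lin28a had 2, and Hmga1, Igf2bp2, Igf2bp3 and Arid3b had 1 each. Of 14581 expressed genes with an annotated 3′UTR, 1519 (10.4%) had a match and 27 (0.185%) had 3 or more, 4 of them being Lin28b, Hmga2, Igf2bp1 and Trim71. The genes were picked as let-7 targets, so these shares describe the choice and are not a result about it.

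The sites of the genes that differed most between the libraries, Lin28a and Hmga2, are given in full, with the first site of Lin28b and the 4 of Trim71, whose matches were all followed by adenine. The capitals mark the match, and the coordinates are those of GRCm38, all on the minus strand.
Lin28a site 1, chr4:134005189-134005211: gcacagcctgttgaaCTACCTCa
Lin28a site 2, chr4:134004551-134004573: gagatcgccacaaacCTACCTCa
Hmga2 site 1, chr10:120364224-120364246: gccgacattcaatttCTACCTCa
Hmga2 site 2, chr10:120362987-120363009: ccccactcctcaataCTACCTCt
Hmga2 site 3, chr10:120362549-120362571: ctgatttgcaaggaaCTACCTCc
Hmga2 site 4, chr10:120361691-120361713: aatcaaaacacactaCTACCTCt
Lin28b site 1, chr10:45381022-45381044: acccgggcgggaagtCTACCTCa
Trim71 site 1, chr9:114512472-114512494: aacattgcctaagtcCTACCTCa
Trim71 site 2, chr9:114512376-114512398: agtgataatttctatCTACCTCa
Trim71 site 3, chr9:114509047-114509069: tttagtatggattttCTACCTCa
Trim71 site 4, chr9:114509021-114509043: ttggcaaaaagttgtCTACCTCa

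Some sites lay close to the stop codon and others near the end of the 3′UTR. The first sites of Lin28b and Hmga2 were 36 and 58 nt after the stop codon. Trim71 had a pair at 166 and 262 nt and another at 3591 and 3617 nt of a 3′UTR of 5512 nt. The 4 sites of Igf2bp1 were all in the part from 1715 nt onwards of 6337 nt, and the site of Arid3b was 13 nt from the end of its 2160 nt. A long 3′UTR has more room for a match by letters alone, and the median length here was 2468 nt against 1123 nt for all genes. Among genes with a 3′UTR of 80 to 125% of the same length, as many matches or more were found in 0.157% for Hmga2, 0.368% for Lin28b, 0.426% for Igf2bp1 and 0.606% for Trim71. For genes with a single match the same share was 9.15% (Hmga1) to 14.0% (Arid3b). Per kilobase of 3′UTR the 10 genes held 0.741 matches and all genes 0.0745. Whether any site is bound in these cells was not measured. The paper reported that the mature microRNAs it probed by northern blot, which did not include let-7, were absent from its Dicer_KO lines.

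**Figure D1:**
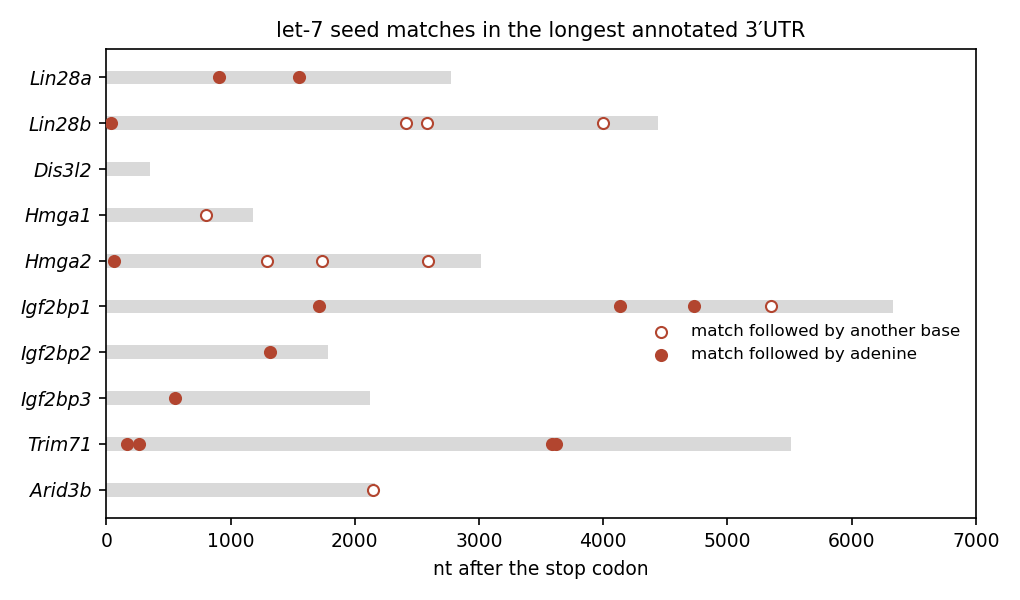
Position of CTACCTC matches in the longest annotated 3′UTR of each of the 10 genes, with distance from the stop codon in nt on the x axis, 1 bar per gene for the length of the 3′UTR, and marks that separate matches followed by adenine from the others. The 22 matches fall in 9 genes, and Dis3l2 with its 350 nt has none.

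The libraries held 41710122 counts (replicate 1) and 41566184 counts (replicate 2) on genes, so 3 counts, the smallest number taken as above 0, correspond to 0.0719 and 0.0722 CPM, the counts per M assigned to genes. Dicer1 itself had 1343 and 1510 counts, which over the whole gene do not show the deleted part. For both mutant lines the paper reported that Dicer mRNA was lost in RNA sequencing and that DICER protein was absent on immunoblots. Levels below are CPM after scaling of the libraries by the trimmed mean of M values (TMM), and differences are log2 ratios of replicate 1 over replicate 2 with a pseudocount of 1. Their 95% intervals are exact binomial intervals that cover counting error only, and nothing in the labels beyond the passage says that the libraries are separate cultures. The 10 pluripotency markers examined, Pou5f1, Nanog and Sox2 among them, were present at 2562 to 199860 counts per library, and 1 of the 10, Dppa5a (199860 and 84835 counts), was higher in replicate 1 by more than 2-fold. The trophectoderm markers stood apart, with a summed 260.5 scaled CPM in replicate 1 and 39.9 in replicate 2. All 5 with enough counts were higher in replicate 1 by more than 2-fold. They were Krt7 (2674 and 44 counts), Krt8 (8004 and 1370), Hand1 (229 and 15), Elf5 (70 and 11) and Eomes (334 and 151). Krt7 and Krt8, which made up most of both sums, lie on chromosome 15, where the median ratio of tested genes was 0.59. Cdx2 had 6 and 1 counts, too few to be compared. The neural markers summed to 62.0 and 107.0, and 2 of the 5 measured, Tubb3 and Neurod1, were lower in replicate 1 by more than 2-fold. The other measured ones were within 2-fold, with log2 ratios of -0.70 for Pax6, -0.19 for Nes and 0.09 for Sox1. The 8 fibroblast markers summed to 26.1 and 18.8, most of it from Thy1 (823 and 621 counts), with Postn at 0 counts in both libraries. Of the 3 measured, 1 was higher in replicate 1 by more than 2-fold, Pdgfrb (285 and 91 counts). Dcn had 0 and 19 counts, the other direction, but averaged below 10 counts. The 8 primitive endoderm markers summed to 17.7 and 11.1, with Afp at 0 in replicate 2. Of the 5 measured, 2 were higher in replicate 1 by more than 2-fold, Gata6 (16 and 5 counts) and Dab2 (52 and 17). Dab2 also lies on chromosome 15. The part of such cells in the differences given below was not tested.

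Most of the genes were lower in replicate 1. The log2 ratio was below 0 for 8 of the 10 and above 0 for Dis3l2 and Hmga1 only, where 48.7% of the 17788 genes that averaged 10 counts or more were below 0. Among genes averaging 500 counts or more, 54.8% were at or below 0. The median ratio was -0.58 for the 10 genes and 0.02 for all genes. Lin28a and Hmga2 were lower in replicate 1 by more than 2-fold, while no gene of the list was higher by that much. Over all genes, 7.12% were lower by more than 2-fold, 14.2% were higher and 21.4% differed by that much in either direction. None of the 10 genes differed by more than 4-fold, where 5.71% of all genes did. All 10 genes had a mean above 500 counts, and among the 9520 genes at that level 2.95% were lower in replicate 1 by more than 2-fold and 8.83% differed in either direction. The counting interval of the ratio left out equality for 7 of the 10 genes, but at this depth it also did so for 73.2% of all genes. When the libraries were scaled by their total counts instead, the median of all genes moved from 0.02 to 0.14, and Hmga2 was at -0.98 and within 2-fold. Under that scaling 7 of the 10 genes were below 0, where 41.3% of all genes were.

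**Figure D2:**
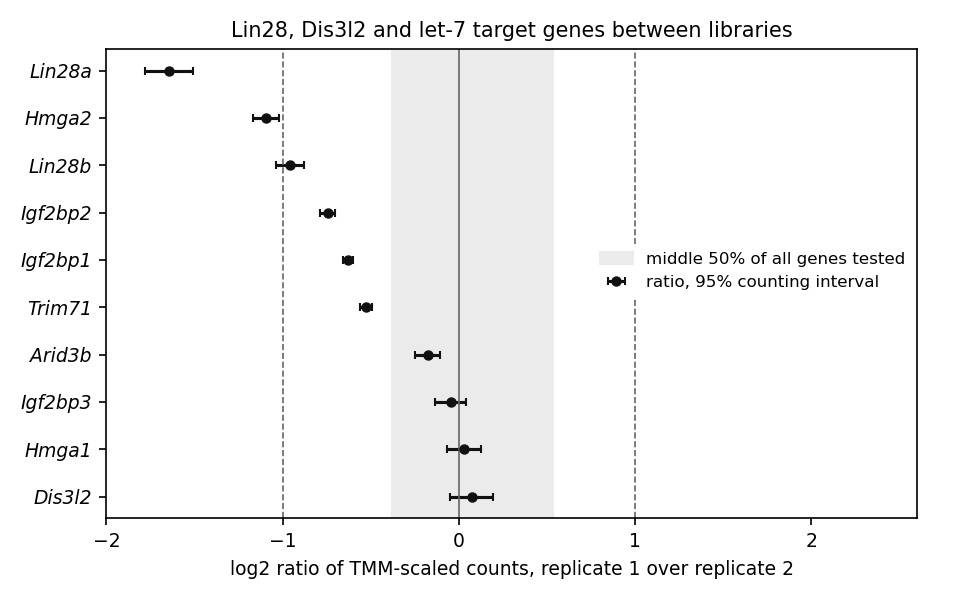
Log2 ratio of TMM-scaled counts, replicate 1 over replicate 2, for each of the 10 genes (points) with 95% counting intervals (bars). The dashed lines mark 2-fold and the grey band holds the middle 50% of all genes, from -0.38 to 0.54. Lin28a and Hmga2 lie beyond the 2-fold line, and Dis3l2, Hmga1 and Igf2bp3 have intervals that include 0.

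**Figure D3:**
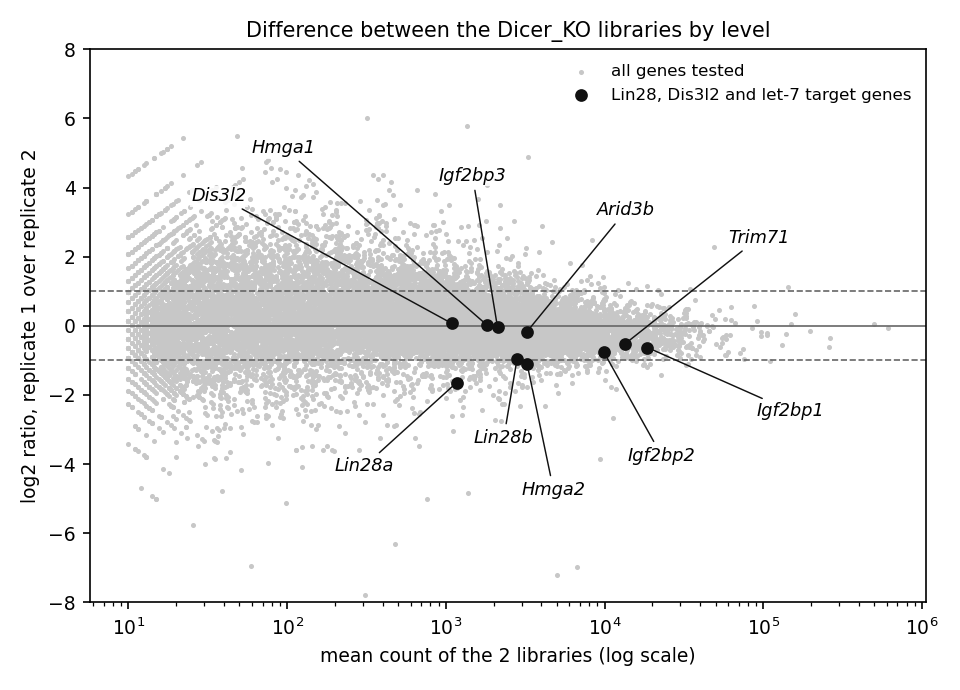
Log2 ratio of replicate 1 over replicate 2 (y axis) against the mean count of the 2 libraries (log x axis) for the 17788 genes averaging 10 counts or more (grey), with the 10 named genes in black. Lin28a, at -1.64, is lower than all but 2.78% of the genes.

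Lin28a had the largest difference. This gene (ENSMUSG00000050966, chr4:134003330-134018841, minus strand) encodes the LIN28 protein that acts mainly in the cytoplasm. It had 603 counts in replicate 1 and 1733 in replicate 2, or 14.5 CPM (95% Wilson interval 13.3 to 15.7) and 41.7 CPM (39.8 to 43.7). After scaling the level was 13.9 and 43.4 CPM, with a mean of 28.7 ± 20.9 (SD, n = 2), and replicate 2 was 3.12-fold higher. The log2 ratio was -1.64 (-1.78 to -1.51). Only 495 genes (2.78% of all tested) had a ratio as low or lower, and among genes averaging 500 counts or more 0.788% did.

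Lin28b (ENSMUSG00000063804, chr10:45376620-45486395, minus strand), the paralog that can block let-7 processing in the nucleus as well, went in the same direction by less. It had 2016 counts in replicate 1 and 3601 in replicate 2, or 46.4 and 90.2 scaled CPM (mean 68.3 ± 31.0, SD, n = 2). The log2 ratio was -0.96 (-1.04 to -0.88), so the point value stayed just within 2-fold and the counting interval crossed the 2-fold line. The intervals of the Lin28a and Lin28b ratios did not overlap. Per kilobase of exon, Lin28a made up 40.4% of the sum of the pair in replicate 1 and 52.2% in replicate 2. The order of the pair in replicate 2 depended on the length used, since with the longest transcript Lin28b was the higher in both libraries, at 8.59 against 3.96 scaled CPM per kb in replicate 1 and 16.7 against 12.4 in replicate 2.

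Dis3l2, the 3′ to 5′ exonuclease that degrades uridylated pre-let-7, was alike in both libraries within counting error. The gene (ENSMUSG00000053333, chr1:86703808-87050095, plus strand) had 1162 and 1016 counts, or 26.7 and 25.5 scaled CPM (mean 26.1 ± 0.914, SD, n = 2). Its log2 ratio was 0.07, and the interval of -0.05 to 0.19 leaves out any difference near that of Lin28a or Lin28b as far as counting error goes.

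The HMGA proteins are architectural chromatin proteins that bend AT-rich DNA, and Hmga2 is a well-known target of let-7. Hmga2 (ENSMUSG00000056758, chr10:120361275-120476469, minus strand) had 2193 counts in replicate 1 and 4301 in replicate 2, or 52.6 CPM (95% Wilson interval 50.4 to 54.8) and 103.5 CPM (100.4 to 106.6). The scaled levels were 50.5 and 107.8 CPM, with a mean of 79.1 ± 40.5 (SD, n = 2), and the log2 ratio was -1.09 (-1.17 to -1.02). A ratio as low or lower was found in 6.11% of all genes and in 2.35% of those averaging 500 counts or more. Hmga2 lies on the same chromosome as Lin28b, and the median ratio of the 785 genes tested on that chromosome was 0.01.

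Hmga1 (ENSMUSG00000046711, chr17:27556497-27563674, plus strand) did not share this difference. It had 1902 and 1712 counts, or 43.8 and 42.9 scaled CPM (mean 43.3 ± 0.629, SD, n = 2), with a log2 ratio of 0.03 (-0.07 to 0.12). The value is uncertain, because 55.0% of the 50-base stretches of its transcripts were identical to the copy Hmga1b on chromosome 11 and the sources used here do not say how multi-mapping reads were counted. Hmga1b had more counts than Hmga1 itself, 6303 in replicate 1 and 4963 in replicate 2, and a log2 ratio of 0.22 (0.17 to 0.28). Summed, the copies had 8205 and 6675 counts and a ratio of 0.18 (0.13 to 0.22), so the difference from Hmga2 remained when the copies were summed. The share of Hmga2 in the per-length sum of Hmga1 and Hmga2 was 26.6% in replicate 1 and 44.1% in replicate 2. With the longest transcript as length the shares were 37.7% and 56.9%, so the order of the pair in replicate 2 turned with the length used. These shares leave out Hmga1b, which stood at 89.2 and 76.5 scaled CPM per kb, above Hmga1 and Hmga2 in both libraries.

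The IGF2 mRNA-binding proteins are oncofetal factors that stabilise and localise mRNAs, and they differed among themselves. Igf2bp1 (ENSMUSG00000013415, chr11:95957163-96005940, minus strand) was the most highly expressed gene of the list, with 15398 and 21865 counts, or 354 and 548 scaled CPM (mean 451 ± 137, SD, n = 2). Its log2 ratio was -0.63 (-0.66 to -0.60). Igf2bp2 (ENSMUSG00000033581, chr16:22059009-22163299, minus strand) had 7756 and 11949 counts, or 179 and 299 scaled CPM (mean 239 ± 85.4, SD, n = 2), and a ratio of -0.75 (-0.79 to -0.70). Both were thus higher in replicate 2, by 1.55-fold and 1.68-fold, and 14.6% and 11.4% of all genes had ratios as low.

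Igf2bp3 (ENSMUSG00000029814, chr6:49085223-49214957, minus strand) was level, with 2172 and 2062 counts, or a mean of 50.8 ± 1.18 scaled CPM (SD, n = 2), and a log2 ratio of -0.05 (-0.13 to 0.04) that turned to 0.07 under scaling by total counts. Exons of Malsu1 on the opposite strand overlap 18.7% of its exon length, and whether reads were counted by strand is not stated in the sources used here. Igf2bp1 took 54.8% of the family's per-length sum in replicate 1 and 54.7% in replicate 2, although that sum was 66.9 scaled CPM per kb in the former and 103.4 in the latter. The share of Igf2bp3 was 9.17% and 6.13%. With the longest transcript as length Igf2bp1 still had the largest share, at 47.1% and 47.5%. Igf2bp2 then had 40.1% and 43.9%, and Igf2bp3 12.8% and 8.63%.

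Trim71, the RNA-binding protein of the TRIM-NHL family first known as LIN-41 in the worm, is the counterpart of an early described let-7 target. The gene (ENSMUSG00000079259, chr9:114507133-114564369, minus strand) had 11537 and 15270 counts, or 266 and 383 scaled CPM (mean 324 ± 82.7, SD, n = 2). Its log2 ratio of -0.53 (-0.56 to -0.49) was lower than that of most genes, with 18.4% as low or lower, and corresponded to a level 1.44-fold higher in replicate 2. Arid3b (ENSMUSG00000004661, chr9:57790353-57836793, minus strand), an AT-rich interaction domain factor, had 3169 and 3293 counts, or 73.0 and 82.5 scaled CPM (mean 77.7 ± 6.76, SD, n = 2). Its ratio was -0.18 (-0.25 to -0.11), within the middle 50% of all genes.

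Compared per kilobase of exon, the levels ran over more than 1 order of magnitude. Igf2bp1 stood highest with 46.6 ± 14.1 scaled CPM per kb (SD, n = 2), and was followed by Trim71 (34.7 ± 8.87), Igf2bp2 (32.3 ± 11.5) and Hmga1 (20.4 ± 0.296). Lower levels were found for Hmga2 (11.7 ± 5.98), Arid3b (9.75 ± 0.847), Lin28b (7.54 ± 3.42), Lin28a (7.17 ± 5.23) and Igf2bp3 (6.23 ± 0.144), and Dis3l2 was lowest with 2.93 ± 0.103. Of the 9 neighbouring pairs in this order only 3 had ranges that did not overlap, namely Igf2bp2 over Hmga1, Hmga1 over Hmga2 and Igf2bp3 over Dis3l2. The ranges of the other 6 pairs overlapped, which does not mean that their order turned. Within each library Igf2bp1, Trim71, Igf2bp2 and Hmga1 held ranks 1 to 4 in that order. The rank differed between the libraries for 4 genes, Lin28a, Hmga2, Igf2bp3 and Arid3b. The level of Hmga1 in this order leaves out the counts of its copy Hmga1b. With the longest transcript as length, Hmga1 and Hmga2 overlapped (21.4 to 21.9 and 13.3 to 28.3 scaled CPM per kb), while the other separations held. The ranges of Igf2bp1 and Trim71, and those of Arid3b and Lin28b, then lay apart, and Igf2bp2 stood above Trim71 in both libraries. The levels of 5 genes, Lin28b, Dis3l2, Hmga2, Igf2bp3 and Arid3b, were then over 1.5 times higher, up to 18.6 for Arid3b. Lin28a, Lin28b and Igf2bp3 are therefore not ranked among themselves by these data.

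**Figure D4:**
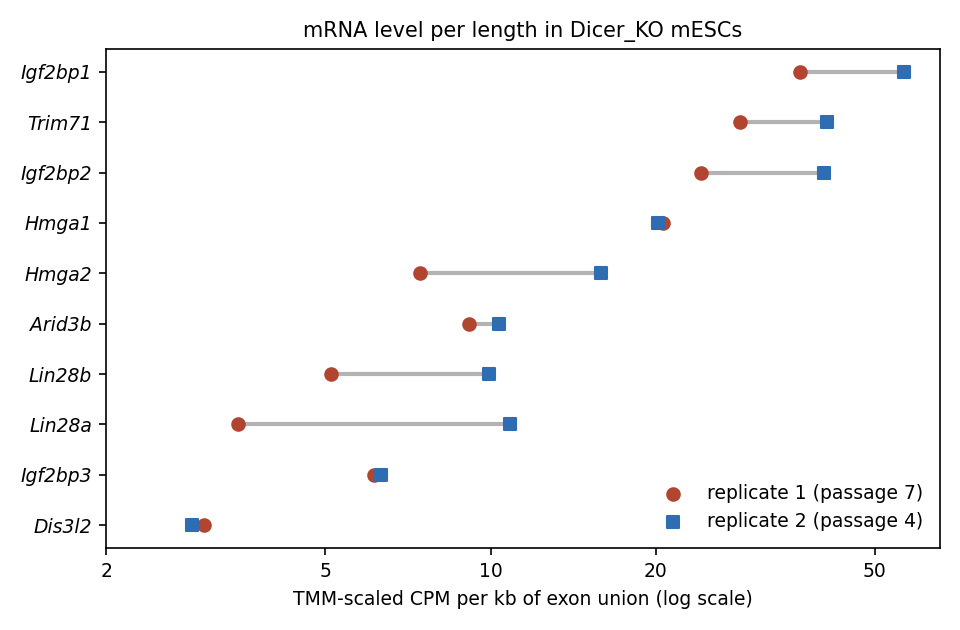
Level per length of the 10 genes (TMM-scaled CPM per kb of exon, log axis), with a circle for replicate 1, a square for replicate 2 and a grey line that joins them. Igf2bp1, Trim71 and Igf2bp2 are highest, Dis3l2 is lowest in both libraries, and the libraries lie far apart for Lin28a (3.47 and 10.9).

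Factors that make or hold back let-7 all stayed within 2-fold between the libraries. None of the 13 genes listed was beyond 2-fold in either direction, and all 13 averaged over 500 counts, a level at which 8.83% of genes were. For a list of 13 genes, none beyond 2-fold is close to that background. The median log2 ratio of the list was 0.07, with a range from -0.51 for Xpo5, the exporter of pre-miRNAs, to 0.83 for Prkra, a partner of DICER (747 and 387 counts). The uridylyltransferases that act with LIN28 were near equal, Tut4 with 4652 and 3910 counts (0.13) and Tut7 with 2770 and 2419 (0.07). Trim25, a cofactor of LIN28A and TUT4, had 11313 and 11787 counts (-0.18). Ago2 (26645 and 18938 counts, 0.37), Drosha (12509 and 9041, 0.35), Tarbp2 (1676 and 1560, -0.02) and Hnrnpa1 (6961 and 7548, -0.24) lie on chromosome 15. The 683 tested genes of that chromosome had a median ratio of 0.59. No gene of the Lin28 list lies there, and on the chromosomes that hold those genes the medians were -0.05 to 0.07.

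Other mRNAs known as let-7 targets lay on both sides. Of 27 such genes, 20 had a ratio below 0, where 48.7% of all genes did, and the median was -0.20 against 0.02. Beyond 2-fold were 18.5%, against 21.4% of all genes. All of the 27 but Myc averaged over 500 counts, a level at which 8.83% of genes were beyond 2-fold and 54.8% were at or below 0. The 3 that were lower in replicate 1 by more than 2-fold were the cyclin gene Ccnd2 (448 and 2119 counts, -2.36), the growth regulator Myc (128 and 569, -2.27) and Rrm2, a subunit of ribonucleotide reductase (5529 and 12762, -1.33). The 2 that were higher were Arid3a, the paralog of Arid3b (1703 and 543 counts, 1.53), and the insulin receptor gene Insr (1440 and 647, 1.03). Arid3a and Arid3b thus had ratios of opposite sign. A CTACCTC match was found in 18 of the 27 and in none of the longest 3′UTRs of Ccnd2 and Myc, while Arid3a had 2. Nr6a1, an orphan nuclear receptor gene with 8 matches, the most in this list, had 7043 and 7832 counts (-0.28). Myc lies on chromosome 15, where the median ratio was 0.59.

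The 4 mRNAs known to be repressed by TRIM71 all stayed within 2-fold and had a median ratio of 0.29, where 8.83% of all genes averaging 500 counts or more were beyond 2-fold, so 4 of 4 within it is close to the background. The cell cycle inhibitor Cdkn1a had 7961 and 4198 counts (0.80), and the pocket protein genes Rbl1 and Rbl2 had 3244 and 2095 counts (0.51) and 1840 and 1607 (0.07). Egr1, an immediate early transcription factor, had 6368 and 8909 counts (-0.61).

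**Figure D5:**
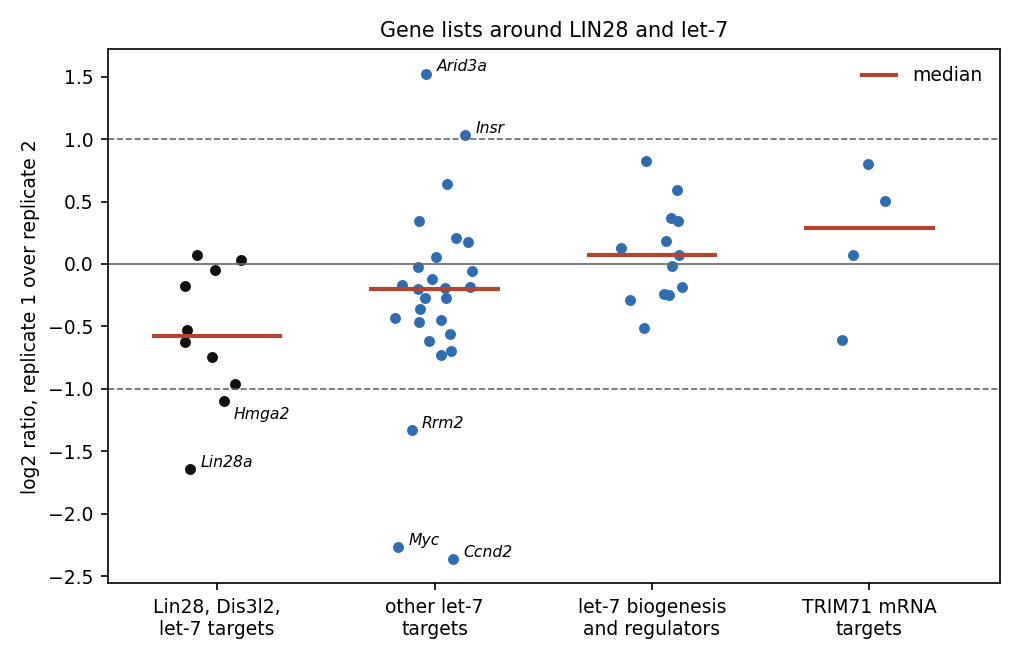
Log2 ratio of replicate 1 over replicate 2 for the 10 named genes and for the lists of other let-7 targets (27 genes), let-7 biogenesis factors (13 genes) and TRIM71 target mRNAs (4 genes), with 1 point per gene and a line at each list's median. The medians are -0.58, -0.20, 0.07 and 0.29, and the biogenesis factors all lie between the 2-fold lines.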

How the data were processed

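The deposited values were whole-number counts of reads per Ensembl gene, without normalization, made by the authors with STAR 2.4.2a and featureCounts 1.4.5-p1 on mm10 (GRCm38) from stranded TruSeq polyA libraries. Reads on overlapping regions were left out by the authors. Whether counting used strand, and how reads with several alignments were treated, is not given in the sources used here, which bears on Hmga1 and Igf2bp3.

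Counts were scaled by TMM (edgeR 4.0.16, R 4.3.3), with DESeq2 1.42.0 size factors and total counts as alternatives. Ratios were taken over the 17788 genes averaging 10 counts or more. Symbols, exon lengths, coordinates and 3′UTRs came from GENCODE M21, a later annotation release of the same assembly, with Ensembl identifiers as deposited, and 1167 identifiers had no symbol. Ratio intervals were conditional binomial intervals (scipy 1.17.1), tested on simulated data. Both libraries belong to the same group, so no p-value was computed.

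The genes were named by symbol, with no threshold on counts, but they and the lists were chosen with earlier results of these data known. The text names the 10 genes, Dicer1, near-identical copies, genes of the pathway and target lists beyond 2-fold, up to 3 others per list by level, and genes at the ends of a range. Cell type markers are given by their range and sums, with those beyond 2-fold. Pax6, Nes, Sox1, Thy1, Dcn and Cdx2 were added after their values were seen. Tut4, Tut7, Prkra, Xpo5, Nr6a1, Tarbp2 and Hnrnpa1 were named for their role, range, matches or chromosome after their values were seen.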

Additional observations from a re-analysis of the deposited data

How the results depend on the processing

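No paired analysis was possible because the labels put the libraries in 1 group. With both libraries kept, 96 values were recomputed under other settings, of which 72 stayed within the limit set for them and 24 moved beyond it. The limit was the SD for levels and the counting interval for ratios. For counts and shares of genes it was a fixed fold change. Lin28a and Hmga2 did not change sign under any of them, but Igf2bp3, within counting error of 0, went from -0.05 to 0.07 with total counts. Scaling by total counts left 1 of the 10 genes beyond 2-fold (Lin28a) and moved 8 of the 10 ratios beyond their counting interval, with a median over the 10 genes of -0.46, and DESeq2 size factors moved none of them. Beyond 4-fold there were 0 of the 10 genes. The number of all genes beyond 2-fold, 3799, became 3934 with total counts and 7934 without a filter on low counts. It was 1827 with a minimum mean of 100 counts, 841 with a minimum of 500 (chosen after seeing the data) and 1015 at 4-fold. With the longest transcript as length, 6 of 10 genes kept their rank and 7 levels per length moved by more than the SD. The share of genes with a seed match was 25.8% for TACCTC and 3.63% for CTACCTCA, each of which overlaps CTACCTC by construction, and 9 and 7 of the 10 genes held them. With a single library left, the level of Dicer1 was 30.9 or 37.8 scaled CPM, and no ratio between libraries exists. A single library of 2 always lies within 1 SD of the mean, so levels with a library left out say nothing of stability. Depth does not limit the 10 genes, the lowest having 603 counts, but the lack of a second library per passage does.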

Other observations

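Let-7 precursor genes were all but absent from the polyA counts. Of 10 such genes in the table, 7 had 0 counts in both libraries, which allows up to 0.0719 and 0.0722 CPM each, and the others were Mirlet7a-1 (5 and 0 counts), Mirlet7b (1 and 0) and Mir98 (1 and 0). The counts therefore say nothing of the level of let-7 precursors, and mature let-7 was not measured in these libraries.

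Over all expressed genes with an annotated 3′UTR, the ratio between the libraries was set beside the number of CTACCTC matches. The median log2 ratio was 0.06 for 13062 genes without a match, 0.09 for 1331 genes with 1, 0.06 for 161 genes with 2 and -0.09 for 27 genes with 3 or more. The last class holds Lin28b, Hmga2, Igf2bp1 and Trim71, and its quartiles were -0.44 and 0.25.

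Gm38158, a gene model that shares 0.768% of the 50-base stretches of Hmga2, had 87 counts in replicate 1 and 175 in replicate 2.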
